A study of Mus musculus with 8 samples.

Results

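The genes described here encode the enzymes and transporters that take up glucose, break it down to lactate or divert it into the pentose phosphate pathway, together with genes of the hypoxia response that governs many of them. They are a list of 34 genes chosen by name, with earlier results of these data known. Of these, 30 were measured and tested among 14237 genes. For each gene the probe set with the highest mean over the 8 arrays was used, out of those that match 1 gene only. Gapdh was measured only by the control probe sets of the array, which were not tested, and Gpi1, Eno1 and G6pdx were not analysed here.

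The cells were Gr-MDSCs (granulocytic myeloid-derived suppressor cells), neutrophil-like cells sorted with magnetic beads as CD11b+ Ly6G+ Ly6C-low cells from prostate tumors of mice that carry PB-Cre+, conditional alleles that include p53L/L and Smad4L/L, and the reporters mTmGL/+ and LSL-LucL/+, aged 12 to 16 weeks per the labels. In this model the probasin promoter drives Cre in the prostate epithelium, so the conditional alleles are deleted in the tumor cells, and all groups came from such tumors. The males had been castrated when a tumor reached 150 mm3 and then fed enzalutamide, an androgen receptor inhibitor, for 4 weeks. Isolated cells were cultured for 6 h with 0.1 uM Dactolisib, a dual PI3K/mTOR inhibitor (2 arrays, Dactolisib 1 and 2), with 0.1 uM Dasatinib, an inhibitor of Src-family and Abl kinases (2 arrays, Dasatinib 1 and 2), or with the solvent DMSO (4 arrays, DMSO 2 to 5). The sources used here do not say whether the arrays of a group came from separate mice or cultures, so the p-values measure only the spread between these arrays, which may be technical.

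Glycolysis begins with the uptake of glucose by transporters of the Slc2a family and its phosphorylation by hexokinases, and ends with pyruvate, which lactate dehydrogenase turns to lactate for export by monocarboxylate transporters. The pentose phosphate pathway branches off after the hexokinase step. Its oxidative arm yields NADPH, which neutrophils use to fuel the oxidative burst and to keep glutathione reduced, and its non-oxidative arm, with transketolase and transaldolase, interconverts sugars and makes ribose for nucleotides. Neutrophils depend largely on glycolysis, and in other cells both pathways are known to be raised at the transcript level by mTOR complex 1, through the transcription factors HIF-1 and SREBP. HIF-1 is itself held in check by the prolyl hydroxylases Egln1 and Egln3 and by the ubiquitin ligase subunit Vhl.

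All values are deposited log2 signals, and differences are on the same log2 scale with the standard error of the fit. The medians of the 8 arrays lay between 4.82 and 4.87. The arrays fell into 3 array sets that cross the treatments, found from the correlation of whole profiles and not given by any label: set A held Dactolisib 1, DMSO 2 and DMSO 4, set B held Dactolisib 2, Dasatinib 2 and DMSO 3, and set C held Dasatinib 1 and DMSO 5. The lowest correlation within a set was 0.987 and the highest between sets 0.980. Each drug was therefore compared with DMSO without regard to the sets, and again within the sets. Within sets, Dactolisib is set against DMSO 2, 3 and 4 and Dasatinib against DMSO 3 and 5, with 2 residual degrees of freedom.

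Of 17 granulocyte markers, S100a9 lay between 13.69 and 14.13 over the 8 arrays and Csf3r, the G-CSF receptor, between 11.62 and 12.60. Others were lower or varied: Mpo and Elane, granule enzymes of early precursors, lay between 4.32 and 4.88 and between 5.14 and 5.63, Camp between 6.47 and 7.33, Ngp between 6.70 and 10.45, and Ltf between 9.29 and 12.94. Of 12 monocyte and macrophage markers, Csf1r lay between 11.43 and 12.47 and Cd68 between 10.99 and 11.78. Others of them were low, such as Mrc1, between 4.49 and 6.56, and Mertk, between 3.94 and 4.24. Epithelial markers moved with the sets: the summed linear signal of 13 epithelial genes was 8848, 1757, 48028 and 2237 on Dactolisib 1 and 2 and Dasatinib 1 and 2, and 10262, 1952, 10064 and 49246 on DMSO 2, 3, 4 and 5. The 3 genes of seminal vesicle secretions summed to 5490 on Dasatinib 1 and 21351 on DMSO 5, and to less than 29 on each other array (the highest was 28.6, on DMSO 4). In such bulk samples fewer cells of a type and less RNA per cell cannot be told apart. In set C the epithelial and seminal vesicle sums were the highest and the summed granulocyte signal the lowest. The members moved both ways there. Both set C arrays were the lowest of the 8 for 13 of the 30 members and the highest for 6. Among all genes this held for 29.4% and 24.6%. The part of these marker lists in the results was not tested.

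Under Dactolisib Pgd, of the pentose phosphate pathway, fell, while of the genes of glycolysis proper only Hk3 passed the threshold, and rose. Tkt, Taldo1 and Rpia of the pentose phosphate pathway were lower in both sets without passing. So were Pgam1 of lower glycolysis (adjusted p = 0.0503, limma) and the lactate carrier Slc16a3 (adjusted p = 0.0687, limma), so this was not particular to 1 pathway. Within array sets 1 of the 30 members rose (Hk3) and 1 fell (Pgd) at an adjusted p under 0.05 by limma, where 2.24% of all genes were called higher and 4.66% lower. The members were thus called about as often as genes at large. At an unadjusted p under 0.05, 1 member was higher (3.33%, against 9.17% of all genes) and 7 were lower (Pgd, Tkt, Taldo1, Rpia, Pgam1, Slc16a3 and Pkm), where the share among all genes was 15.1%. The median difference of the 30 members was 0.00, close to the 0.00 of all genes.

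Without the sets no member and no gene passed the adjusted threshold (percent called 0 in each direction). At an unadjusted p under 0.05, Hk3 was higher and Pgd and Taldo1 lower in that comparison, each with an adjusted p of 0.775 by limma, where 2.73% of all genes were higher and 3.72% lower. Both Dactolisib arrays lay above all 4 DMSO arrays for 2 members (Hk3 and Pfkfb3), which held for 11.1% of all genes, and below them for 4 (Pgd, Taldo1, Aldoc and Slc16a1), which held for 10.8%. The same 2 members lay above all 6 other arrays, Dasatinib included (8.18% of all genes did), and the same 4 below them (8.3%). Against the DMSO arrays of their own sets 12 members were higher in both sets, where 31.6% of all genes were, and 13 lower, where 35.4% were.

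**Figure D1:**
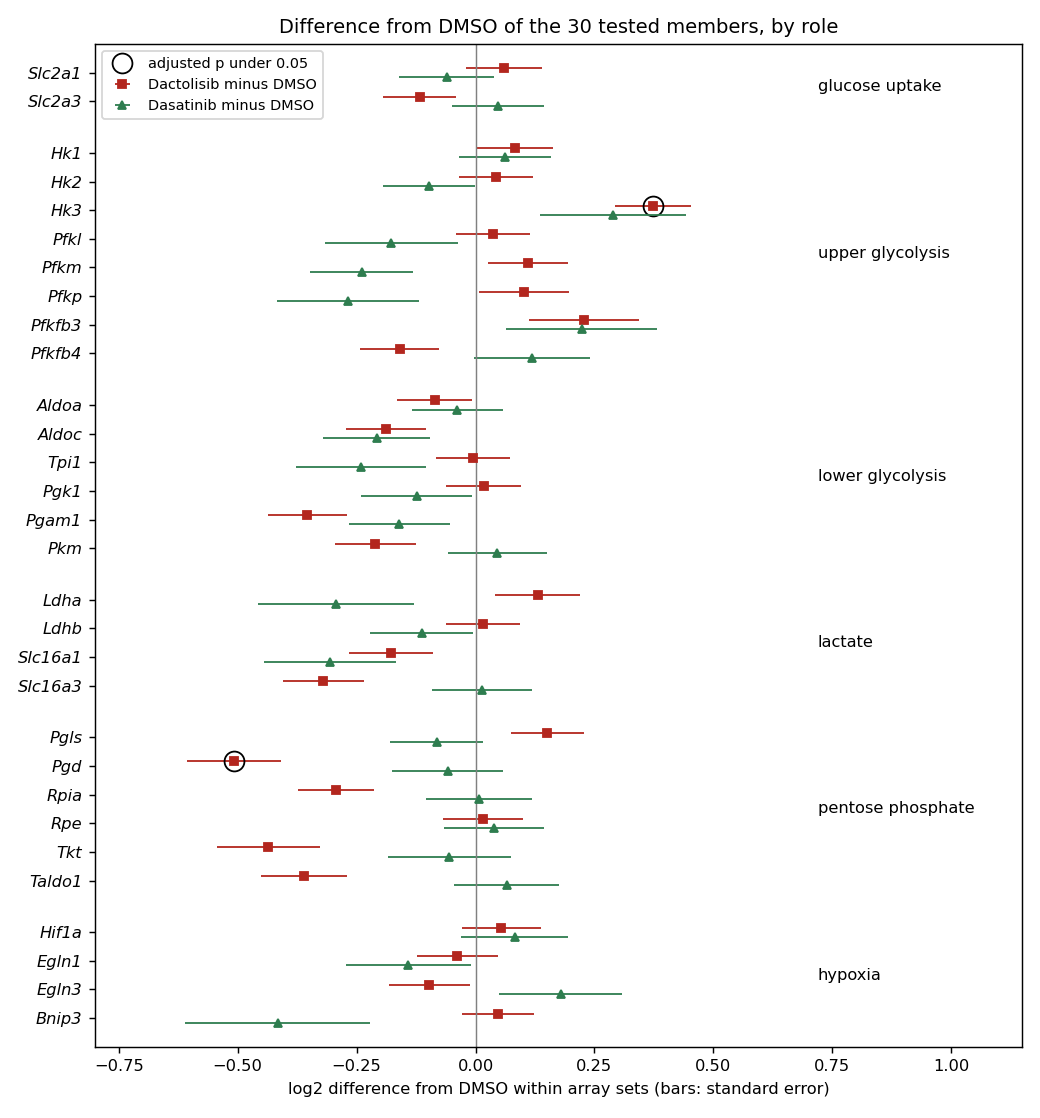
Log2 difference from DMSO within array sets (x axis, bars are standard errors) for the 30 tested members in rows, grouped by role, with Dactolisib as squares and Dasatinib as triangles. The circles mark an adjusted p under 0.05, which only Hk3 (0.37) and Pgd (-0.51) under Dactolisib reach.

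The pentose phosphate genes are shown first by the sequence upstream of their start, because 4 of the 6 that were tested were lower together under Dactolisib. The windows are the 250 bases before the transcription start in the RefSeq promoter table (GRCm38.p6), printed 5′ to 3′ along the gene. They lie at chr4:149166706-149166955 (Pgd, minus strand), chr6:70792176-70792425 (Rpia, minus), chr14:30548881-30549130 (Tkt, plus) and chr7:141391910-141392159 (Taldo1, plus). Capitals mark matches to the hypoxia response core, searched as ACGTG and GCGTG on both strands.

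Pgd: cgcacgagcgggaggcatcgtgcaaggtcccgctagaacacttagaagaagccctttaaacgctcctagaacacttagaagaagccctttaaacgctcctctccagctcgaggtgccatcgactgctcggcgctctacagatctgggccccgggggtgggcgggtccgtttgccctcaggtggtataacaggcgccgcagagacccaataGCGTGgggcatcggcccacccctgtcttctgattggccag

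Rpia: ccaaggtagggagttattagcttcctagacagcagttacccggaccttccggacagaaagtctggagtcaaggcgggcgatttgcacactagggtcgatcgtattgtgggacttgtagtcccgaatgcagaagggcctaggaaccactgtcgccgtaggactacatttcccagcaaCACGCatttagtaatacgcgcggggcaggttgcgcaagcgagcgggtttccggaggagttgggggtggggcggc

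Tkt: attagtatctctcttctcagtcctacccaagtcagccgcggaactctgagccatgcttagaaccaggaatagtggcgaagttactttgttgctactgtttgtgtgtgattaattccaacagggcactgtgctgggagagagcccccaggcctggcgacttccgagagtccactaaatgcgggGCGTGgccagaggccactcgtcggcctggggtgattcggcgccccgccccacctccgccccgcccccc

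Taldo1: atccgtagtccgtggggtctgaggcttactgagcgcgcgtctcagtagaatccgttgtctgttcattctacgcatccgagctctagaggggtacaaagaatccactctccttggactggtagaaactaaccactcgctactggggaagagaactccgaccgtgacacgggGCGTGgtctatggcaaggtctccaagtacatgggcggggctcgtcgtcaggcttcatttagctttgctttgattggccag

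Each of these 4 windows held GCGTG once and ACGTG not at all. The match began 40 bases before the start in Pgd, 68 in Tkt, 80 in Taldo1 and, on the opposite strand, 74 in Rpia. Of the 7 windows of the 6 tested pentose phosphate genes (2 of them of Pgd) 5 held GCGTG and 0 held ACGTG. Of all 32851 windows 28.2% and 16.6% held these letters. GCGTG was not particular to these genes: it was in 21 of the 40 windows of all members (52.5%). Upper glycolysis had it in 7 of 13 windows and the lactate genes in 3 of 5. The antioxidant response core was searched as TGACNNNGC and the sterol response core as TCACNCCAC. Each was in 0 of the 7 windows, against 10.2% and 1.05% of all windows. With so few windows and such low shares, a count of 0 cannot show whether either core is rarer before these genes. Sequence outside the windows was not searched. A match is a description of letters and not of a bound site.

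Pgd encodes 6-phosphogluconate dehydrogenase, the second NADPH-yielding enzyme of the oxidative arm. Its log2 signal was 12.17 and 12.21 on Dactolisib 1 and 2, 12.79 and 12.57 on Dasatinib 1 and 2, and 12.61, 12.65, 12.85 and 12.83 on DMSO 2, 3, 4 and 5. The 2 Dactolisib arrays were the lowest of the 8 and did not overlap with any other array. Within sets Pgd fell by 0.51 ± 0.10 (0.703-fold, adjusted p = 0.0293, limma). All 4 probe sets of Pgd fell, by 0.48 to 0.66, each with an adjusted p under 0.05 by limma. The probe set used here, like that of Tkt and that of Hk3, carries a suffix that marks probes able to match other transcripts.

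Tkt encodes transketolase, which moves short carbon units between sugars. It measured 11.02 and 10.40 on Dactolisib 1 and 2, 11.82 and 10.78 on Dasatinib 1 and 2, and 11.34, 10.79, 11.65 and 11.91 on DMSO 2, 3, 4 and 5. Each Dactolisib array lay below the DMSO arrays of its own set, but Dactolisib 1 lay above DMSO 3, so the groups overlapped. The difference within sets was -0.44 ± 0.11 (adjusted p = 0.0582, limma), and a second probe set of Tkt fell by 0.52 ± 0.11 (adjusted p = 0.0400, limma).

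Taldo1 encodes transaldolase, the other shuttle of the non-oxidative arm. Its signals were 12.02 and 12.09 on Dactolisib 1 and 2, 12.59 and 12.42 on Dasatinib 1 and 2, and 12.32, 12.41, 12.51 and 12.47 on DMSO 2, 3, 4 and 5. As for Pgd, both Dactolisib arrays were below every other array. The difference within sets was -0.36 ± 0.09 (adjusted p = 0.0587, limma).

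Rpia encodes ribose 5-phosphate isomerase, which makes the ribose of nucleotides. Rpia had 7.95 and 7.38 on Dactolisib 1 and 2, 8.94 and 7.60 on Dasatinib 1 and 2, and 8.18, 7.75, 8.19 and 8.78 on DMSO 2, 3, 4 and 5. As for Tkt, the arrays of set C were the highest and those of set B the lowest whatever the treatment, and within sets A and B Dactolisib was the lowest array. That difference was -0.29 ± 0.08 (adjusted p = 0.0739, limma).

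The remaining pentose phosphate genes did not move this way. Pgls, the lactonase of the oxidative arm, differed by 0.15 ± 0.08 within sets, and Rpe, an epimerase, by 0.02 ± 0.08. Over the 6 genes the median difference from the DMSO arrays of the same set was -0.31 on Dactolisib 1 and -0.34 on Dactolisib 2, against 0.03 on Dasatinib 1 and -0.02 on Dasatinib 2. The medians over all genes on those arrays were -0.02, 0.00, 0.02 and -0.01. In both sets 4 of the 6 genes were lower under Dactolisib, where 35.4% of all genes were, and 1, Pgls, was higher, where 31.6% were.

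Beside these values stand those of other cells and of RNA quality. Within sets 2 of 17 granulocyte markers fell under Dactolisib (Mmp9 by 0.62 and Cxcr2 by 0.55), as did 3 of 12 monocyte and macrophage markers (Cx3cr1 by 0.75, C1qc by 0.44 and C1qa by 0.35) and 2 of 13 epithelial markers (Cldn4 by 0.48 and Cdh1 by 0.33), while 0 of these lists' genes rose at an adjusted p under 0.05 by limma. Among all genes 4.66% were called lower and 2.24% higher in the same comparison. The summed monocyte and macrophage signal was 9813 on Dactolisib 1, against 9888 and 10084 on the DMSO arrays of its set, and 11436 on Dactolisib 2, against 11844. The ratio of the 3′ to the 5′ control probe sets of Actb, on the log2 scale, was above that of the same-set DMSO arrays by 0.0491 on Dactolisib 1 and 0.0709 on Dactolisib 2. For Gapdh the same ratio was above by only 0.0149 and 0.0179. The part of these differences in the pentose phosphate result was not tested.

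**Figure D2:**
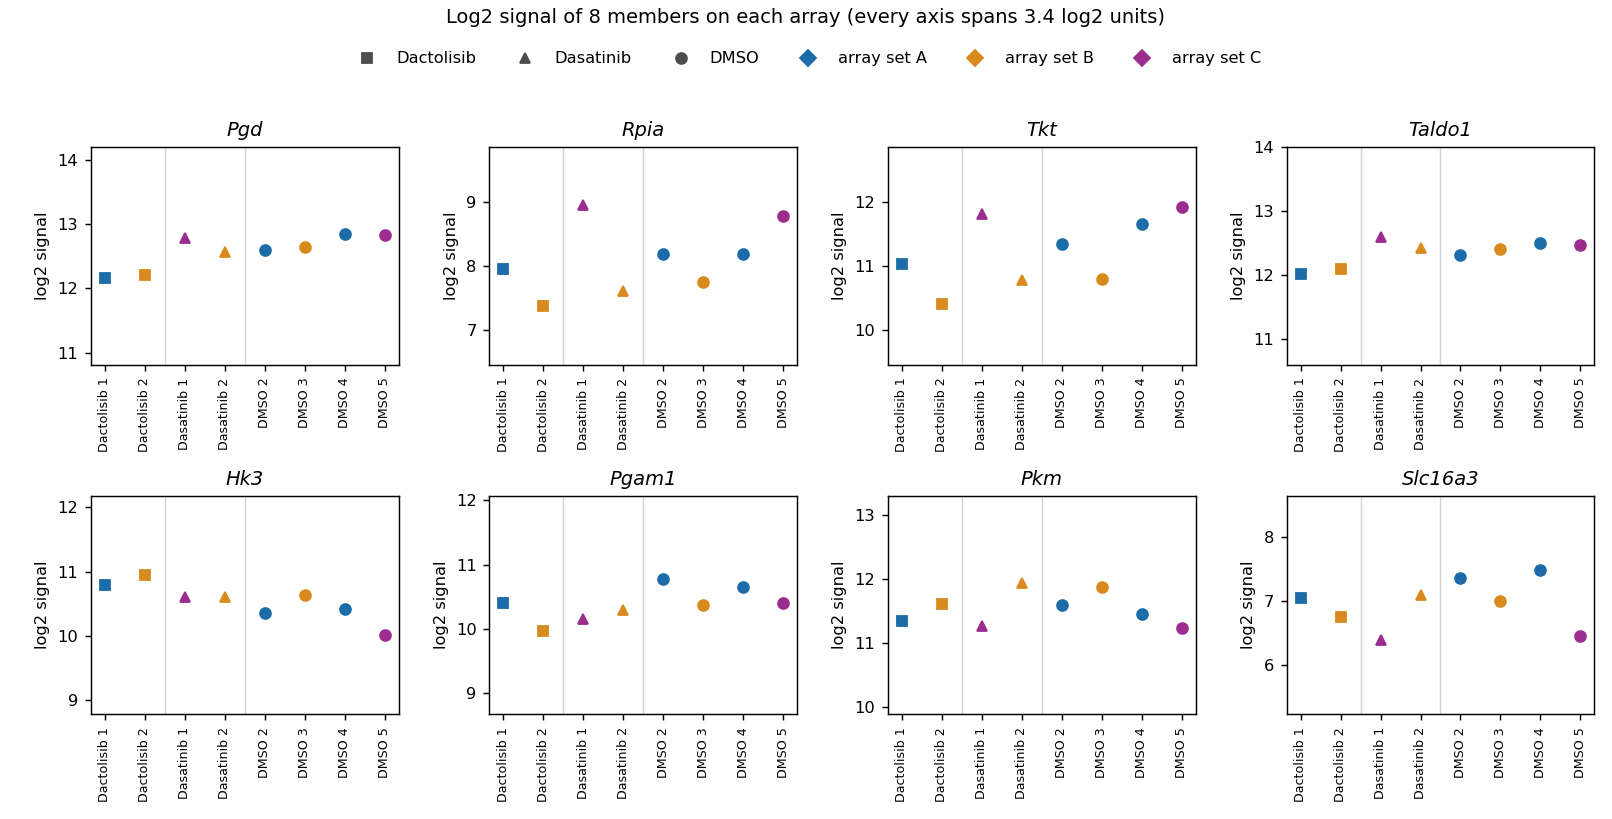
Log2 signal (y axis, each panel spanning the same width) of the 8 members with full values on each array (x axis, Dactolisib, Dasatinib, then DMSO), with colors for the array sets. Pgd and Taldo1 are lowest on both Dactolisib arrays, whereas Rpia, Tkt and Slc16a3 follow the color, with Dactolisib below the DMSO arrays of its own color.

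Upper glycolysis runs from glucose to fructose 1,6-bisphosphate. Among its 8 tested genes Hk3 rose under Dactolisib and the median difference within sets was 0.09. Hk3 encodes hexokinase 3, the isozyme typical of myeloid cells. It measured 10.80 and 10.95 on Dactolisib 1 and 2, 10.61 and 10.61 on Dasatinib 1 and 2, and 10.35, 10.63, 10.41 and 10.01 on DMSO 2, 3, 4 and 5. Both Dactolisib arrays lay above every other array. The difference within sets was 0.37 ± 0.08 (1.29-fold, adjusted p = 0.0390, limma), and the second probe set of Hk3 differed by 0.30 ± 0.08 (adjusted p = 0.0640, limma). The call of Hk3 was lost in 7 of 14 alternative settings, with values between 0.31 and 0.44, and that of Pgd in 3 of 14. Among the 14 are the settings without DMSO 5 and without set C, which could not change these calls.

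The other hexokinases showed smaller values. Hk1, the widely expressed form, differed by 0.08 ± 0.08 and Hk2, the insulin- and hypoxia-responsive form, by 0.04 ± 0.08 under Dactolisib. The window before Hk3 (chr13:55021386-55021635, minus strand, GRCm38.p6, RefSeq) is shown because only Hk3 was called higher by the probe set used for each member. This window holds ACGTG once, on the opposite strand 156 bases before the start.

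Hk3: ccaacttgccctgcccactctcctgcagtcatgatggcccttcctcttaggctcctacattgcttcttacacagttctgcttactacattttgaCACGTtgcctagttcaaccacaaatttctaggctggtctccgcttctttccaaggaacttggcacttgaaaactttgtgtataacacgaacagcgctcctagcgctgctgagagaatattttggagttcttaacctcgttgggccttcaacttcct

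The phosphofructokinase subunits Pfkl, Pfkm and Pfkp, which form the committed step, differed by 0.04 ± 0.08, 0.11 ± 0.08 and 0.10 ± 0.10. The bifunctional enzymes that set the level of the activator fructose 2,6-bisphosphate gave Pfkfb3 0.23 ± 0.12 (adjusted p = 0.288, limma) and Pfkfb4 -0.16 ± 0.08 (adjusted p = 0.303, limma). Pfkfb3 measured 9.53 and 9.55 on Dactolisib 1 and 2, 8.82 and 9.45 on Dasatinib 1 and 2, and 9.33, 9.48, 9.03 and 8.35 on DMSO 2, 3, 4 and 5. Its Dactolisib arrays were the highest, by a margin of less than 0.1 over DMSO 3. A second probe set of Pfkfb3 rose by 0.44 ± 0.10 (adjusted p = 0.0427, limma).

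Isoforms of an enzyme were also compared by the difference of their log2 signals on each array, which shows unequal change but not which isoform is the more abundant. For 12 pairs and 2 drugs, 24 exact two-sided permutation tests over arrays were run, and the smallest p that 2 arrays against 4 allow is 0.0667. None of the 24 reached it, and all adjusted p-values were 1. Under Dactolisib the difference of Hk3 and Hk1 was 0.42 above that under DMSO (exact permutation p = 0.2), by 0.28 and 0.31 within the 2 sets. The difference of Pfkfb4 and Pfkfb3 was 0.42 below that under DMSO (-0.42, exact permutation p = 0.2), by -0.45 and -0.30 within the sets. For Hk3 and Hk2 it was 0.67 above (exact permutation p = 0.267), and 0.34 and 0.32 within the sets.

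Of the 6 tested genes of lower glycolysis, which split the sugar and harvest ATP, none passed the adjusted threshold under Dactolisib, and their median difference was -0.14. Pgam1, phosphoglycerate mutase, came closest. It had 10.40 and 9.96 on Dactolisib 1 and 2, 10.16 and 10.29 on Dasatinib 1 and 2, and 10.78, 10.36, 10.65 and 10.40 on DMSO 2, 3, 4 and 5. Dactolisib was lower in each set, though Dactolisib 1 overlapped with DMSO 3. The difference was -0.35 ± 0.08 (adjusted p = 0.0503, limma).

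Pkm, pyruvate kinase, gave 11.35 and 11.61 on Dactolisib 1 and 2, 11.26 and 11.94 on Dasatinib 1 and 2, and 11.59, 11.87, 11.45 and 11.24 on DMSO 2, 3, 4 and 5. All groups overlapped, and the difference within sets was -0.21 ± 0.08 (adjusted p = 0.189, limma). The aldolases Aldoa and Aldoc differed by -0.09 ± 0.08 and -0.19 ± 0.08. Tpi1, triose phosphate isomerase, differed by -0.01 ± 0.08 and Pgk1, phosphoglycerate kinase, by 0.02 ± 0.08.

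Gapdh, which oxidizes glyceraldehyde 3-phosphate, is given as a description from its 3′ control probe set. It read 13.25 and 12.95 on Dactolisib 1 and 2, 12.40 and 12.93 on Dasatinib 1 and 2, and 13.20, 12.91, 13.10 and 12.79 on DMSO 2, 3, 4 and 5. Against the DMSO arrays of its own set it stood 0.11 and 0.04 higher on Dactolisib 1 and 2, and 0.39 lower on Dasatinib 1 (a difference of -0.39) and 0.03 higher on Dasatinib 2.

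Glucose uptake and lactate handling held no called member under Dactolisib. The glucose transporters Slc2a1 and Slc2a3 differed by 0.06 ± 0.08 and -0.12 ± 0.08. Lactate dehydrogenase A, Ldha, differed by 0.13 ± 0.09 and Ldhb by 0.02 ± 0.08. The proton-linked lactate carriers were both lower within sets, Slc16a1 by -0.18 ± 0.09 (adjusted p = 0.281, limma) and Slc16a3 by -0.32 ± 0.08 (adjusted p = 0.0687, limma).

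Slc16a3, the carrier known for lactate export, measured 7.04 and 6.76 on Dactolisib 1 and 2, 6.39 and 7.09 on Dasatinib 1 and 2, and 7.36, 7.0, 7.48 and 6.46 on DMSO 2, 3, 4 and 5. The lowest values were those of set C, under Dasatinib and DMSO alike, and the groups overlapped.

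The hypoxia genes did not pass the threshold under Dactolisib. Hif1a, the oxygen-regulated subunit of HIF-1, differed by 0.05 ± 0.08, and its 4 probe sets gave 0.05 to 0.33. The prolyl hydroxylases Egln1 and Egln3 differed by -0.04 ± 0.09 and -0.10 ± 0.09, and Bnip3, a mitophagy receptor and classical HIF-1 target, by 0.05 ± 0.08. Their median was 0.00. Egln3 followed the sets: it read 9.98 and 8.89 on Dactolisib 1 and 2, 9.94 and 9.05 on Dasatinib 1 and 2, and 10.03, 9.10, 9.96 and 9.54 on DMSO 2, 3, 4 and 5, with the 3 arrays of set B lowest.

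The members share a feature of sequence that their choice did not use. Of 40 windows before the starts of 29 members (Slc2a3 was not matched), 33 held ACGTG or GCGTG, which is 82.5%, whereas 38.6% of all 32851 windows did. All 4 windows of the hypoxia genes and 11 of 13 windows of upper glycolysis held one of them, and ACGTG by itself was in 19 of the 40, but in 0 of the 7 windows of the pentose phosphate genes. The median share of G and C was 60.4% in the members' windows and 52.4% in all windows, and the part of base composition in this difference was not tested. Ldha (chr7:46845554-46845803, plus strand) and Bnip3 (chr7:138909507-138909756, minus strand) are printed as windows with repeated matches, for comparison with the single matches above. Neither gene passed the threshold with all arrays in the comparison.

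Ldha: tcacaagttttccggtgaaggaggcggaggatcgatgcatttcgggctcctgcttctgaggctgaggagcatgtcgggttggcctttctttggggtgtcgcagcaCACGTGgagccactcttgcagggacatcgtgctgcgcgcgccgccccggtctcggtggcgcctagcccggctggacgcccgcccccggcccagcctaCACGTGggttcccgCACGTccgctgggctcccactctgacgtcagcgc

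Bnip3: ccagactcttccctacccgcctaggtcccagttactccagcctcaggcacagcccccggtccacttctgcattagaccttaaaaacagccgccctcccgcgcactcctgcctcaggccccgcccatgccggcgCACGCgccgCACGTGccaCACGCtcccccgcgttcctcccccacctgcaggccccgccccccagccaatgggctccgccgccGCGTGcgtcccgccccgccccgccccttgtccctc

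In the Ldha window 5 matches to ACGTG, counted on both strands, began 145, 144, 48, 47 and 34 bases before the start. The first and the second overlap in a palindrome, as do the third and the fourth. The Bnip3 window held 2 matches to ACGTG and 3 to GCGTG.

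**Figure D3:**
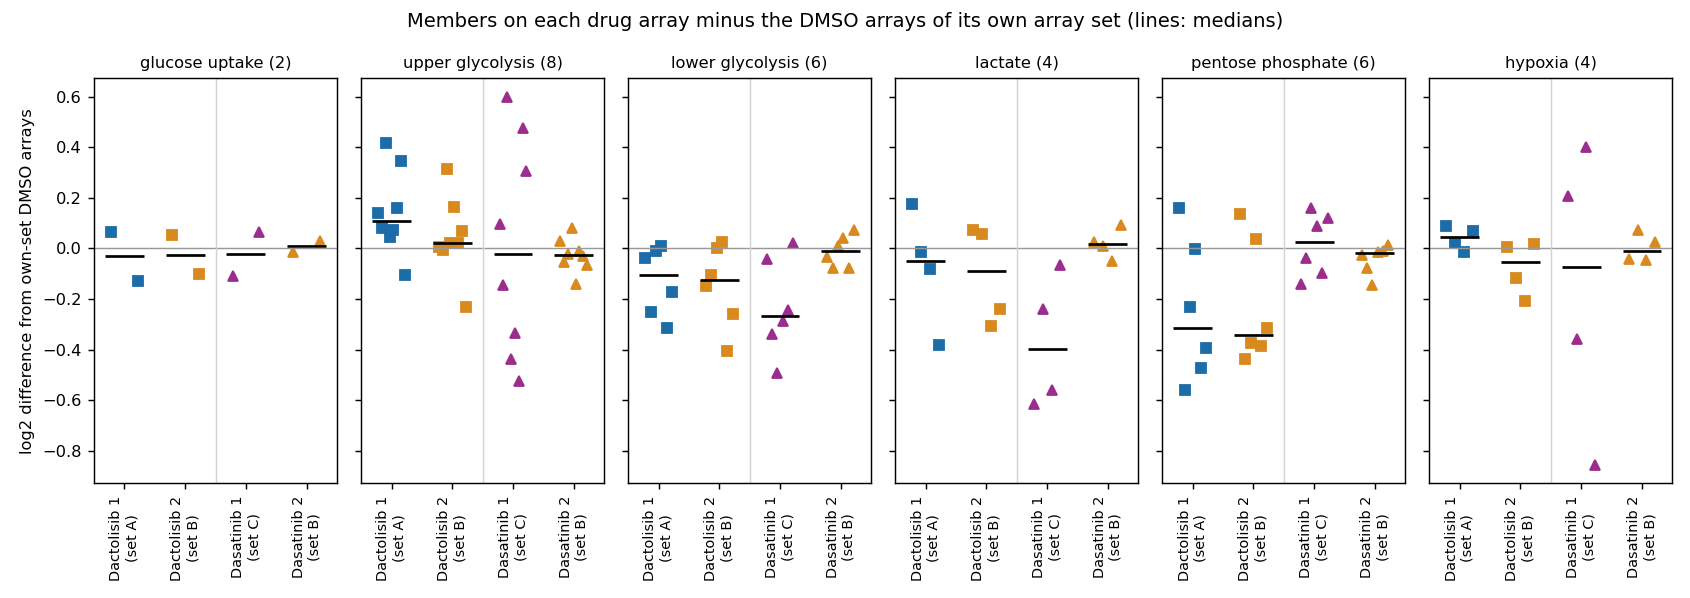
Log2 signal on a drug array minus the mean of the DMSO arrays in the same set (y axis), 1 point per tested member, in panels by role, with a line at the median. The pentose phosphate medians are -0.31 and -0.34 on Dactolisib 1 and 2, and 0.03 and -0.02 on Dasatinib 1 and 2.

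Under Dasatinib no member and no gene passed the adjusted threshold, with or without the sets (percent called 0 in each direction by limma). At an unadjusted p under 0.05, 0 members were higher and 0 lower in both comparisons, where 1.86% of all genes were higher and 2.1% lower within sets, and 0.14% and 0.162% without them. The pentose phosphate genes that were lower under Dactolisib gave -0.06 ± 0.12 (Pgd), -0.05 ± 0.13 (Tkt), 0.07 ± 0.11 (Taldo1) and 0.01 ± 0.11 (Rpia) within sets, and Hk3 gave 0.29 ± 0.15. These Hk3 values came from Dasatinib 1, which stood 0.60 above DMSO 5, while Dasatinib 2 stood 0.02 below DMSO 3 (-0.02).

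The values of Dasatinib rest on arrays that differ in size of change. Dasatinib 2 stayed close to DMSO 3, with member differences between -0.15 (Rpia) and 0.09 (Slc16a3). Over both Dasatinib arrays 4 members were higher and 11 lower than the same-set DMSO arrays, where 21.9% and 22.8% of all genes were. Dasatinib 1 ranged from -0.86 (Bnip3) to 0.60 (Hk3) against DMSO 5. Bnip3 measured 11.28 and 11.04 on Dactolisib 1 and 2, 9.28 and 11.05 on Dasatinib 1 and 2, and 11.22, 11.02, 11.20 and 10.14 on DMSO 2, 3, 4 and 5. Only Dasatinib 1 and DMSO 5 stood apart. Its difference within sets was -0.42 ± 0.19 (adjusted p = 0.850, limma), and without Dasatinib 2, or without DMSO 3, it was -0.86 ± 0.12 and called (adjusted p = 0.0304, limma), with the residual spread then taken from DMSO 2 and DMSO 4 alone.

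Both Dasatinib arrays lay below all 4 DMSO arrays for 2 members, Pfkm and Pgam1, which held for 2.47% of all genes, and above them for 0 (1.66% of all genes). Pfkm, the muscle-type subunit of phosphofructokinase, had 6.38 and 6.31 on Dactolisib 1 and 2, 6.05 and 6.01 on Dasatinib 1 and 2, and 6.37, 6.15, 6.24 and 6.39 on DMSO 2, 3, 4 and 5. Its Dasatinib arrays were the lowest of the 8, which it alone among the members showed and which held for 1.18% of all genes, and its difference from DMSO within sets was -0.24 ± 0.11 (adjusted p = 0.850, limma).

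Set directly against each other at the same dose and time, Dactolisib and Dasatinib did not differ in any member at an adjusted p under 0.05 by limma (percent called 0 in each direction, with and without the sets). At an unadjusted p under 0.05 within sets, 1 member was higher under Dactolisib (Pfkm, 0.34 ± 0.11) and 6 were lower, where 5.07% of all genes were higher and 9.78% lower. The lower ones were Pgd (-0.42 ± 0.12, adjusted p = 0.204, limma), Taldo1 (-0.40 ± 0.12), Tkt (-0.38 ± 0.13), Slc16a3 (-0.33 ± 0.11), Pkm (-0.28 ± 0.11) and Rpia (-0.28 ± 0.12). The test of the difference between the drugs thus did not pass the threshold for any pentose phosphate gene. Without the sets the unadjusted counts were 1 higher and 2 lower, where 1.44% and 2.4% of all genes were.

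A wider list of 55 genes, of which 45 were tested, holds other isozymes, enzymes of branches such as glycogen and ribose phosphate synthesis, and further genes of the hypoxia response. Within sets 4 rose and 2 fell under Dactolisib (8.89% and 4.44% of the list, against 2.24% and 4.66% of all genes), and 0 did under Dasatinib, where 0 genes in all were called. The list was fixed with earlier results of these data known, so these shares cannot be read as a test of the list. Gyg, glycogenin, which primes glycogen, changed most. It measured 10.15 and 9.93 on Dactolisib 1 and 2, 7.34 and 9.34 on Dasatinib 1 and 2, and 9.30, 9.24, 9.25 and 8.68 on DMSO 2, 3, 4 and 5. Gyg rose by 0.80 ± 0.08 within sets (1.74-fold, adjusted p = 0.00941, limma), and its second probe set by 0.72 ± 0.10. On Dasatinib 1 it stood 1.34 below DMSO 5 (-1.34), but 0.10 above DMSO 3 on Dasatinib 2.

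Gbe1, the glycogen branching enzyme, fell by 0.42 ± 0.10 (adjusted p = 0.0478, limma) under Dactolisib. Its signals were 5.90 and 6.07 on Dactolisib 1 and 2, 6.94 and 6.46 on Dasatinib 1 and 2, and 6.13, 6.61, 6.32 and 6.58 on DMSO 2, 3, 4 and 5, so Dactolisib was the lowest of the 3 groups without overlap.

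H6pd encodes the glucose 6-phosphate dehydrogenase of the endoplasmic reticulum, which feeds a separate oxidative pentose phosphate route there. H6pd had 6.02 and 5.57 on Dactolisib 1 and 2, 7.41 and 6.20 on Dasatinib 1 and 2, and 6.64, 6.35, 6.86 and 7.27 on DMSO 2, 3, 4 and 5. Both Dactolisib arrays were below all others. It fell by 0.75 ± 0.09 within sets (0.594-fold, adjusted p = 0.0106, limma), a drop in the same direction as Pgd.

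Vhl, which marks hydroxylated HIF subunits for destruction, rose by 0.59 ± 0.09 (1.51-fold, adjusted p = 0.0163, limma), with a second probe set at 0.47 ± 0.09. Vhl read 8.59 and 8.42 on Dactolisib 1 and 2, 7.39 and 8.02 on Dasatinib 1 and 2, and 7.91, 7.97, 7.87 and 7.27 on DMSO 2, 3, 4 and 5. Dactolisib lay above every other array.

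Slc2a6, a sugar transporter found in macrophages, rose by 0.52 ± 0.10 (adjusted p = 0.0253, limma). It had 10.71 and 10.87 on Dactolisib 1 and 2, 9.38 and 10.43 on Dasatinib 1 and 2, and 10.25, 10.42, 10.02 and 8.91 on DMSO 2, 3, 4 and 5. Cited2, a HIF-induced protein that competes with HIF for its coactivator, rose by 0.40 ± 0.09 (adjusted p = 0.0435, limma). Cited2 had 12.29 and 12.24 on Dactolisib 1 and 2, 11.72 and 11.93 on Dasatinib 1 and 2, and 11.89, 11.94, 11.75 and 11.18 on DMSO 2, 3, 4 and 5. For both genes the Dactolisib arrays were the highest of the 8, which held for 8.18% of all genes. Without the sets each of the 6 genes had an adjusted p of 0.775 by limma. Within sets the calls of Cited2 and Gbe1 were each lost in 7 of 14 alternative settings, that of Gyg in 4, and those of H6pd, Vhl and Slc2a6 in 3 each, the settings without Dactolisib 1, Dactolisib 2 or DMSO 3 among them. Here too the settings without DMSO 5 and without set C could not change a call.

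**Figure D4:**
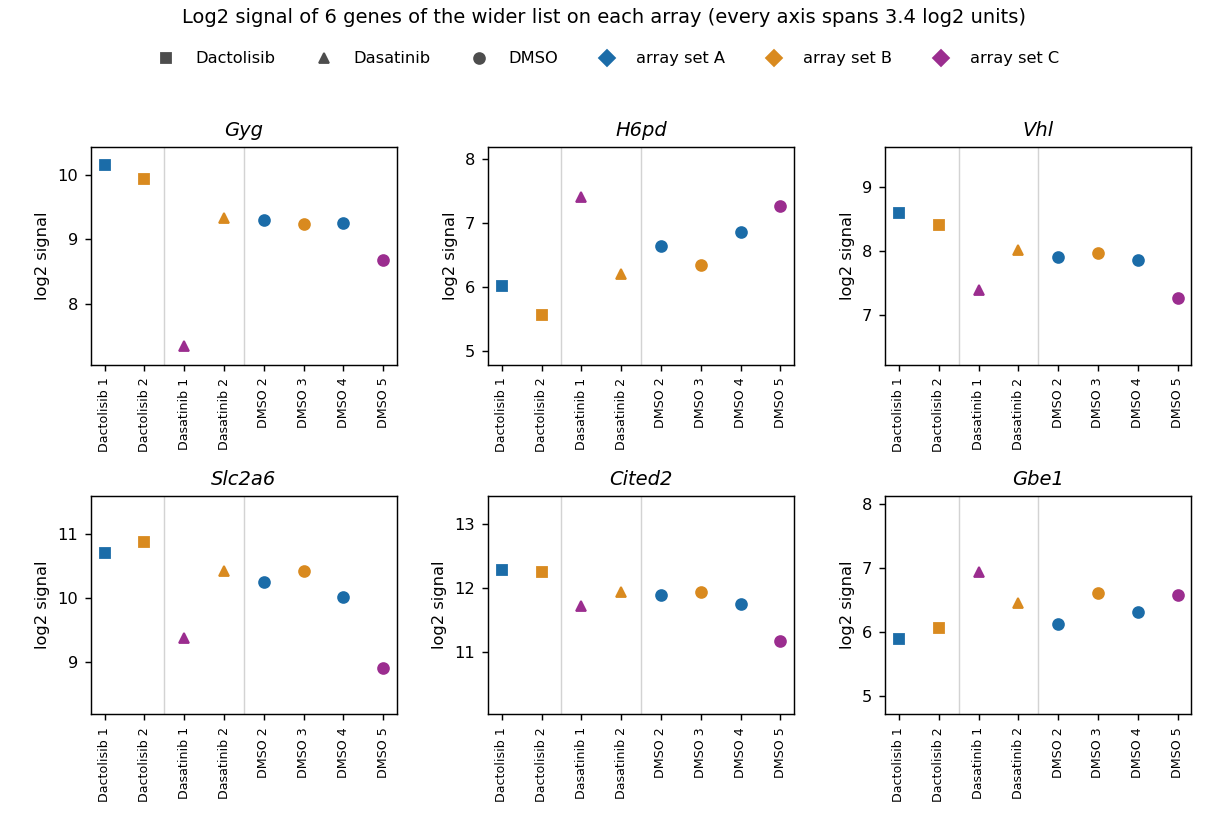
Log2 signal (y axis, each panel spanning the same width) on each array (x axis, Dactolisib, Dasatinib, then DMSO) of the 6 genes of the wider list called within array sets under Dactolisib, with colors for the sets. Dactolisib is above all other arrays for Gyg, Vhl, Slc2a6 and Cited2 and below them for H6pd and Gbe1. The 6 genes were picked by their call on these same arrays, so this separation goes with the choice. Both Dactolisib arrays lay above the other 6 arrays for 8.18% of all genes and below them for 8.3%.

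Other hypoxia-response genes of that list gave no call. Kdm3a, a histone demethylase induced by HIF, differed by 0.31 ± 0.08 (adjusted p = 0.0631, limma) and Ndrg1 by 0.30 ± 0.08 (adjusted p = 0.0631, limma) under Dactolisib. Hif3a differed by 0.26 ± 0.08 (adjusted p = 0.0906, limma), Vegfa by 0.19 ± 0.09 and Ddit4 by -0.02 ± 0.08. Pdk1, which the list counts as a branch enzyme, differed by 0.00 ± 0.09. Under Dasatinib the lowest p among the 45 was that of Adm, the peptide adrenomedullin, at -0.62 ± 0.11 (adjusted p = 0.850, limma), with -0.76 on Dasatinib 1 and -0.48 on Dasatinib 2 against the same-set DMSO arrays.

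The members also varied between DMSO arrays of different sets. DMSO 4 differed from DMSO 2, of the same set, by a median absolute value of 0.10, while DMSO 5 differed from the mean of DMSO 2 and 4 by 0.36. In set C both arrays were the lowest of the 8 for 13 members and the highest for 6, which held for 29.4% and 24.6% of all genes. DMSO 5 was lower than the mean of DMSO 2 and 4 for Pfkfb4 (-1.16), Bnip3 (-1.07), Slc2a3 (-1.06), Slc16a3 (-0.97) and Pfkp (-0.94), and higher for Slc16a1 (1.23), Hk2 (0.63) and Rpia (0.60). Set C is also where the epithelial signal was highest, at 48028 on Dasatinib 1 and 49246 on DMSO 5, and the granulocyte signal lowest, at 63625 and 69679.5, where the other arrays had 76069 or more. The smallest ranges over the 8 arrays were those of Slc2a1 (0.17), Aldoa (0.24) and Ldhb (0.25), and the largest was that of Bnip3 (2.0).

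**Figure D5:**
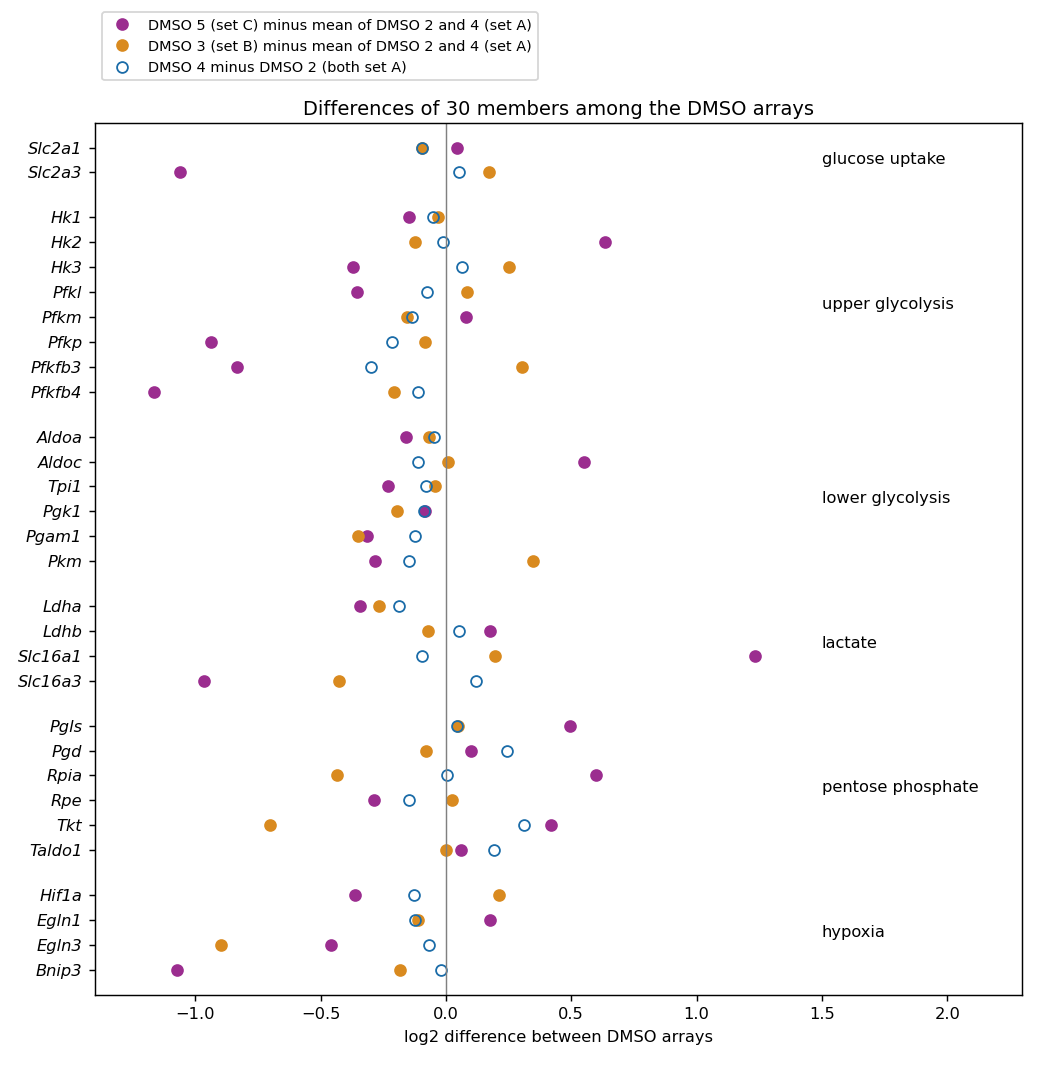
Differences between DMSO arrays (x axis, log2) for the 30 members in rows by role: DMSO 5 and DMSO 3 minus the mean of DMSO 2 and 4, and DMSO 4 minus DMSO 2. The within-set differences run from -0.30 (Pfkfb3) to 0.31 (Tkt), whereas DMSO 5 ranges from -1.16 (Pfkfb4) to 1.23 (Slc16a1).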

How the data were processed

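RNA of 8 Gr-MDSC samples was hybridized to Affymetrix mouse arrays. The table the authors deposited holds log2 signals of 45101 probe sets. The paper names the oligo package and RNeasy, the submitters' notes MAS5 and the labels Trizol. The sorted values of the arrays differ by at most 0.226, and the values were used as they are. Groups were taken from titles, since the treatment field of both Dasatinib samples reads Dactolisib. Probe sets were matched to genes through the platform annotation (34945 to 1 gene, 932 to several and 9160 to none, with 64 control probe sets). Probe sets below the upper 66.7% by mean signal were left out, and the other 30024 were tested with the linear models and moderated errors of limma 3.58.1 (R 4.3.3; Benjamini-Hochberg over all 30024, threshold 0.05), without a block and with the array set as a block. The sets came from average linkage on 1 minus Pearson correlation, without the listed genes. The members, lists and tests were chosen with earlier results of these data known. Full values are given for members past the threshold, then for those with the lowest p under Dactolisib within sets, up to 8, and for genes of the wider list past the threshold, and a few genes beyond these were chosen after their values were seen. The precision is limited by the number of arrays. The fit was tested on simulated data. Alternatives were quantile normalization, 32 added before log2, other filters, a trended and robust prior, averaging the probe sets of each gene, all 8 arrays in 1 fit, the methods' t-test and leaving out each array, and, chosen after seeing the data, leaving out set C. One allele of the mouse model is not reported here.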

Additional observations from a re-analysis of the deposited data

Results flagged for a closer look

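In the DMSO group 1 array, DMSO 5, stood far from the other 3 in 5 of 36 genes examined (the members and the called genes of the wider list), by Dixon's criterion, which chance meets in about 1 of 20 groups. Hk2 measured 8.82 on DMSO 5, with the nearest other array at 8.19, and Pgls 8.23, with the nearest at 7.78. Slc2a3 measured 10.28 on DMSO 5, with the nearest at 11.32, Gyg 8.68, with the nearest at 9.24, and Vhl 7.27, with the nearest at 7.87. Over all 14237 genes 13.2% met the criterion. DMSO 5 adds nothing to the comparison of Dactolisib with DMSO within array sets, so the calls of Gyg and Vhl there are the same without it.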

How the results depend on the processing

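Under Dactolisib within array sets, where 1 member was called higher and 1 lower, the count of members higher was 0 after quantile normalization, with no filter and with all 8 arrays in 1 fit. The count of members lower was 2 after quantile normalization or when the probe sets of each gene were averaged (Pgd and Pgam1), 6 with 32 added before log2 or with only the upper 33.3% of probe sets (these 2 with Tkt, Taldo1, Rpia and Slc16a3), and 7 with a trended and robust prior (Pkm as well). Leaving out 1 array gave 0 to 1 members higher and 0 to 3 lower: 0 and 0 without Dactolisib 1, Dactolisib 2 or DMSO 3, where 0 genes in all were called, 1 and 3 without DMSO 2 (Pgd, Tkt and Taldo1 lower), and 0 and 2 without DMSO 4. Leaving out DMSO 5 or all of set C could not change this comparison, to which set C adds nothing, so Hk3 and Pgd necessarily remained the calls. Apart from the settings with 0 genes called in all, the share of all genes called is not given beside these counts. A higher count of members is therefore not read as particular to them. Over 14 named genes and their alternatives 196 values were computed: 0 changed sign, 138 stayed on their side of the threshold, 37 lost and 21 gained it. Those that stayed include the values without DMSO 5 and without set C, which could not differ. Under Dasatinib within sets leaving out 1 array gave 0 to 1 members lower (Bnip3, without Dasatinib 2 or DMSO 3), and for Dactolisib against Dasatinib 0 to 1 higher (Bnip3, without Dasatinib 2). The methods' t-test without the sets called 0 members after Benjamini-Hochberg adjustment. At an unadjusted p under 0.05 that t-test called 0 higher and 2 lower under Dactolisib and 0 higher and 1 lower under Dasatinib. The shares of all genes at this unadjusted threshold are not given here. Isoform pairs at the smallest possible p numbered 0 to 2 for Dactolisib and 0 to 4 for Dasatinib when 1 array was left out. Replicate numbers 1 and 2 are shared by the drugs, and their same-numbered arrays deviated together (r = 0.559), but with 2 pairs they were not taken as pairs, and with the replicate block 0 members were higher and 0 lower.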
